A study of Mus musculus with 8 samples.

Results

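A set of 10 genes that mark or sustain immature blood cells was followed in mouse granulocyte-macrophage progenitors immortalised by HOXA9 (iGMPs): the receptors Flt3 and Kit, the surface sialomucin Cd34, and the transcriptional regulators Myb, Myc, Mycn, Sox4, Lmo2, Hlf and Etv5. They were taken by name as the self-renewal and progenitor genes of these cells, 10 of the 34199 genes in the count tables, and all 10 passed the filter on low counts. When HOXA9 activity was withdrawn for 48 h, 8 of the 10 fell, from 2.74-fold lower for Myb to 51.2-fold lower for Flt3 among the 7 with reads in all libraries, with only a lower bound for Mycn. Of all tested genes, 22.1% were called lower and 25.2% higher. After loss of the histone chaperone CAF-1 for the same time, 0 of the 10 changed by the same criteria, where 3.5% of all tested genes were called lower and 10.5% higher against uninduced cells, so a count of 0 among 10 is near the background. Between these treatments, 9 of the 10 were higher in the cells that had lost CAF-1. In that comparison 22.2% of all tested genes were called higher and 21.4% lower. Lmo2 was called in none of the comparisons.

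In marrow, immature progenitors carry KIT and FLT3, receptor tyrosine kinases whose ligands, stem cell factor and FLT3 ligand, sustain survival and division. CD34 marks many stem and progenitor cells. MYB, MYC and LMO2 are transcriptional regulators needed for blood formation, HLF is a PAR bZIP factor active in stem cells, and the HOX proteins, HOXA9 among them, hold progenitors in an immature, dividing state. As granulocytes mature, most of these genes are turned down and granule protein genes are turned on.

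The iGMPs, from C57Bl/6 mice, carried HOXA9 fused to the hormone-binding domain of the estrogen receptor, so that HOXA9 is active only with estradiol, together with a GFP reporter under the lysozyme promoter. All groups were grown with stem cell factor from the conditioned medium of a hamster cell line. Uninduced cells, in 150 ng/ml estradiol, were taken at 0 h. CAF-1 OFF cells kept the hormone and had 500 micromolar IPTG for 48 h, which drives an shRNA against Chaf1b, the gene of a CAF-1 subunit. IPTG-treated control cells had IPTG for 48 h with estradiol kept at 150 ng/ml, and their labels name neither a dose nor a vector. HOXA9 OFF cells were washed and kept without estradiol for 48 h. There were 2 libraries per group, and the labels do not say whether they came from separate cultures, so the p-values measure only the spread between these libraries, which may be technical. The supplement of the study speaks of independent sub-clones for its RNA-seq tracks, but which library came from which sub-clone is not in the labels. The cells are an immortalised model of a progenitor, dependent on the fusion protein for self-renewal.

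Total gene counts were 14044284 to 22423837 per library, and levels are given below in CPM, gene counts relative to the TMM-scaled total of each library. Chaf1b stood at 96.8 and 100 CPM in the uninduced pair, at 95.1 and 102 CPM in the IPTG-treated control pair, at 18.7 and 9.72 CPM in the CAF-1 OFF pair and at 48.3 and 41.0 CPM in the HOXA9 OFF pair. Hoxa9, whose protein product rather than RNA is switched by estradiol, stood at 234 and 235 CPM when uninduced and at 481 and 450 CPM in the HOXA9 OFF pair, so its count does not check that label. All 7 markers of granulocyte-macrophage progenitors were present in every group. They summed to 8510 to 12430 CPM in the uninduced, 8850 to 11801 CPM in the IPTG-treated control, 13524 to 14246 CPM in the CAF-1 OFF and 6193 to 8525 CPM in the HOXA9 OFF pair. Against uninduced cells, 1 was called lower and 2 higher in HOXA9 OFF cells, and 0 lower and 2 higher in CAF-1 OFF cells. The B and T cell markers were mixed. Cd3e and Cd3g were at 0 in all libraries and Cd3d and Pax5 were near 0, but the B cell genes Ebf1 (88.1 and 107 CPM) and Cd79b (40.0 and 44.2 CPM) were present in the uninduced pair, and the list of 8 summed to 131 to 153 CPM there and to 58.7 to 68.5 CPM in the HOXA9 OFF pair. Ebf1 fell with HOXA9 activity (log2 fold change -6.38), and its part in the falls below was not tested. The 15 markers of neutrophil maturation summed to 218 to 281 CPM in uninduced, 228 to 273 CPM in IPTG-treated control, 1667 to 2832 CPM in CAF-1 OFF and 8286 to 12043 CPM in the HOXA9 OFF pair. Of these 15 genes, 11 rose in CAF-1 OFF cells and 15 rose in HOXA9 OFF cells against uninduced cells. In bulk RNA, fewer cells of an immature type and less RNA of a gene per cell cannot be told apart. The IPTG-treated control replicate 1 had 14.6% of its reads outside any gene, against 5.30% to 7.79% in the other libraries.

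**Figure D1:**
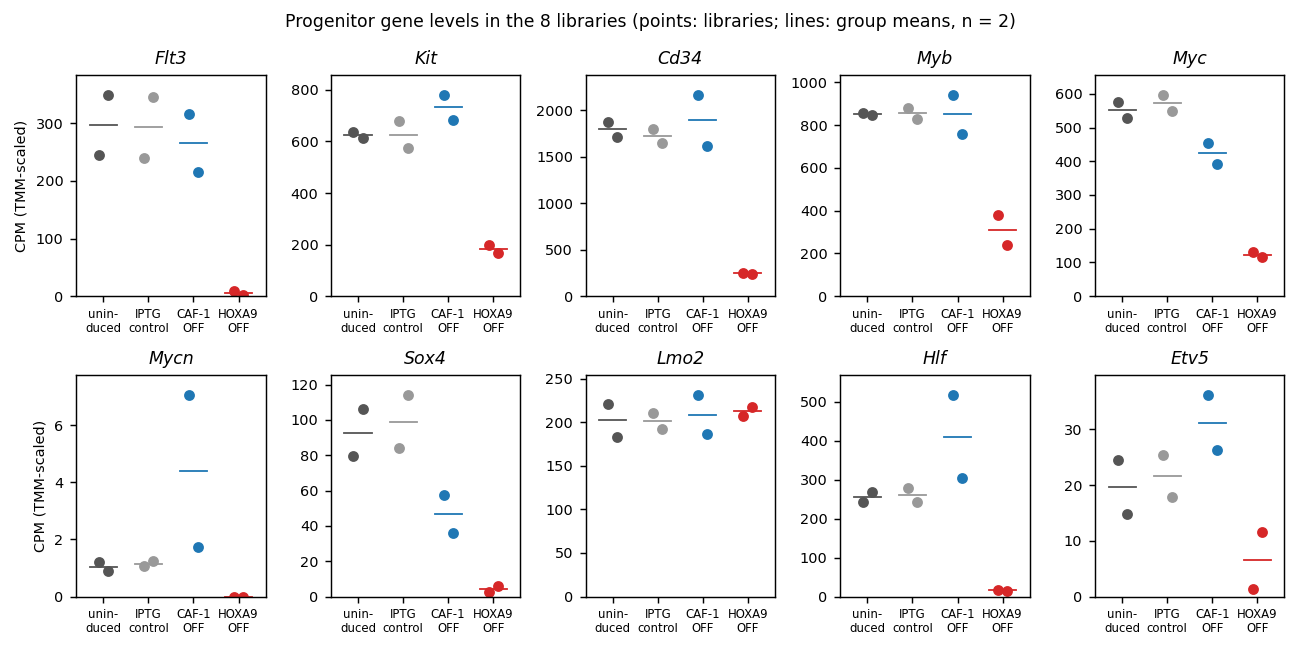
Level of each of the 10 progenitor genes in CPM (vertical axes, each starting at 0) in the 8 libraries, with a point per library and a line at the mean of each group of 2. The HOXA9 OFF points lie far below the other groups for Flt3, Cd34, Sox4 and Hlf, while for Lmo2 they lie among the uninduced and CAF-1 OFF points.

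A gene was called when edgeR's quasi-likelihood test gave a Benjamini-Hochberg adjusted p (FDR) under 0.05 and the change was at least 1.5-fold, which are the thresholds of the study. In HOXA9 OFF against uninduced cells, 22.1% of the 13080 tested genes were called lower and 25.2% higher. Of the 10 progenitor genes, 8 were called lower and 0 higher. Their median log2 fold change was -2.52, and -2.43 with Mycn set at its bound, beside 0.01 over all tested genes. The neutrophil maturation markers moved in the same comparison, and their part in these falls was not tested.

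The receptors and the surface marker fell together with HOXA9 activity. Flt3 was at 245 and 350 CPM in the uninduced pair and at 9.28 and 2.43 CPM in the HOXA9 OFF pair. The groups lay far apart, although the HOXA9 OFF libraries differed from each other by 3.82-fold. The log2 fold change was -5.68 ± 0.57 (SE, FDR = 0.000115 by edgeR's quasi-likelihood test), and it was -6.93 without HOXA9 OFF replicate 1 and -5.00 without replicate 2. Kit was at 638 and 613 CPM in the uninduced pair and at 198 and 167 CPM in the HOXA9 OFF pair. It thus kept 29.2% of its uninduced level, more than Flt3 with 1.97%. Cd34 was at 1872 and 1711 CPM before and at 251 and 242 CPM after the withdrawal of estradiol. Its libraries agreed closely in each group, and the change of 7.27-fold had a 95% interval of 5.59 to 9.45 (FDR = 1.67e-05 by edgeR).

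5 of the 7 transcriptional regulators fell. Myb, a DNA-binding regulator of progenitor proliferation, was at 857 and 847 CPM in the uninduced pair and at 380 and 241 CPM in the HOXA9 OFF pair, the smallest of the 8 falls (log2 fold change -1.46 ± 0.21, SE, FDR = 0.000712 by edgeR). Myc, a driver of growth and ribosome synthesis, was at 574 and 527 CPM against 130 and 115 CPM. All libraries of one group lay above all of the other, and Myc was 4.50-fold lower (FDR = 1.67e-05 by edgeR). Sox4, a high-mobility-group factor of immature cells, was at 79.4 and 106 CPM in the uninduced pair and at 2.39 and 6.05 CPM in the HOXA9 OFF pair. Its log2 fold change of -4.44 ± 0.44 (SE, FDR = 0.000108 by edgeR) was -5.27 without HOXA9 OFF replicate 2 and -3.94 without replicate 1. Hlf was at 242 and 267 CPM before and at 17.1 and 15.2 CPM after, 15.7-fold lower with a 95% interval of 10.4 to 23.9 (FDR = 2.27e-05 by edgeR). Hlf therefore stood out for a large fall with close replicates.

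Mycn, the MYC paralog, was scarce throughout. It had 27 and 21 reads in uninduced libraries, or 1.20 and 0.898 CPM, and 0 reads in both HOXA9 OFF libraries. Set against a floor of 3 reads in the smaller HOXA9 OFF library, which is 0.163 CPM, it was at least 6.45-fold lower, and at least 5.52-fold lower from the lower of the uninduced libraries. That floor covers counting error only, as PCR copies were not separated from molecules.

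Lmo2 and Etv5 were not called. Lmo2, the bridging protein of a blood-forming transcription complex, was at 221 and 184 CPM in the uninduced pair and at 208 and 217 CPM in the HOXA9 OFF pair. The HOXA9 OFF values lay within the range of the uninduced ones, and the 95% interval of the fold was 0.840 to 1.31. Etv5, an ETS factor that responds to receptor tyrosine kinase signalling, was at 24.6 and 14.8 CPM in the uninduced pair and at 1.41 and 11.6 CPM in the HOXA9 OFF pair. Replicate 1 of HOXA9 OFF was far below the uninduced cells and replicate 2 was only just below them, an 8.23-fold difference between replicates. The log2 fold change of Etv5 was -1.59 ± 0.74 (SE, FDR = 0.101 by edgeR), and it became -3.79 (FDR = 0.000440 by edgeR) without HOXA9 OFF replicate 2 and -0.76 (FDR = 0.124 by edgeR) without replicate 1.

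Gene spans on the mm9 build, from GENCODE vM1, placed Flt3 at chr5:148142317-148212065, Kit at chr5:75970941-76052747, Cd34 at chr1:196765015-196787486 and Myb at chr10:20844736-20880790. Myc lay at chr15:61816946-61821929, Mycn at chr12:12942902-12948720, Sox4 at chr13:29040788-29045582, Lmo2 at chr2:103798143-103822035, Hlf at chr11:90197849-90252231 and Etv5 at chr16:22381382-22439792. The counts are of exonic reads, and each gene is protein-coding. Sox4 has a single exon, and the gene Gm17419 on the opposite strand covers 54.6% of its exonic bases. Opposite-strand genes also cover 5.65% of the exonic bases of Cd34 and 13% of those of Myb. Whether the reads were counted by strand is not stated, so the counts of these 3 genes, Sox4 above all, may hold reads of their antisense partners.

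Promoters of 8 of the 10 genes were found in RefSeq (GRCm38.p6), and those of Flt3, Hlf and Cd34 are shown because these 3 genes fell by 7.27-fold or more with HOXA9 activity and were not called after CAF-1 loss. Sox4 met the same criteria and is not shown, because of the antisense overlap described above. Each line holds the 250 bases before the annotated start, 5′ to 3′ on the strand of the gene, at chr5:147400490-147400739 (minus) for Flt3, chr11:90390918-90391167 (minus) for Hlf and chr1:194938571-194938820 (plus) for Cd34. Capitals mark the bases that match a searched motif.
Flt3: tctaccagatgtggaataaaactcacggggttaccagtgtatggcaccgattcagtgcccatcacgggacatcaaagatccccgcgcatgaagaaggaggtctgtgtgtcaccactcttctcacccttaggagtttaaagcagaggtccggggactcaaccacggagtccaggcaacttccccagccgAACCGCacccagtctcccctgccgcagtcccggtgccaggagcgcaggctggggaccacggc
Hlf: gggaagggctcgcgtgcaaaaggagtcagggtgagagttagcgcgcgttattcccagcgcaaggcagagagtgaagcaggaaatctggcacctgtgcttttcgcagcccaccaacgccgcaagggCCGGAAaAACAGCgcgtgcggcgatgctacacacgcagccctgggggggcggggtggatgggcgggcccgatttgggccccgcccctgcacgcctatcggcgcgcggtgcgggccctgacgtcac
Cd34: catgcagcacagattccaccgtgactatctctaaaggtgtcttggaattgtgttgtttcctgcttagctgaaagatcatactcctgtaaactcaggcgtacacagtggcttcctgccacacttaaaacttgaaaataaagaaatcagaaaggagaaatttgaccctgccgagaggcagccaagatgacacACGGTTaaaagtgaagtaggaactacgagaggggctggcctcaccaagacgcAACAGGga
6 motifs were searched on both strands from 250 bases before to 50 bases after the start. The ETS core CCGGAA was matched in Hlf, with its first base 125 bases before the start and next to a MYB site, and 14.9% of the 32851 RefSeq promoters hold it. The MYB site AACNGN was matched in all 3 of these genes, and 80.2% of promoters hold it, so a match does not set these genes apart. The E-box CACGTG began just after the start of Flt3, outside the bases shown, and is held by 7.15% of promoters. The HOX and PBX site TGATTNAT (3.22% of promoters), the C/EBP site TTGCNNAA (10.8%) and the RUNX site TGTGGT (16.8%) had 0 matches in the windows of the 8 genes. The base composition of these promoters differed as well, with a GC content of 46.4% for Cd34, 59.2% for Flt3 and 67.2% for Hlf beside a median of 52.4% over all promoters. A match is a description of letters, not of binding.

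CAF-1 OFF cells were compared with uninduced cells and with IPTG-treated control cells, to see which of these genes change when CAF-1 is lost while HOXA9 stays active. Both comparisons share the CAF-1 OFF libraries. Against uninduced cells, 3.5% of tested genes were called lower and 10.5% higher, and of the 10 progenitor genes 0 were called in either direction. Against IPTG-treated control cells, 3.2% were called lower and 9.56% higher, and again 0 of the 10 were called. Their median log2 fold change was 0.06 against uninduced and 0.09 against IPTG-treated control cells, beside 0.01 over all genes in both. At an unadjusted p under 0.05, 4 of the 10 passed in each comparison, namely Myc, Sox4, Mycn and Hlf. Of all tested genes 36.8% and 35.4% passed it, so this count is near the background. With DESeq2, 2 were called in each, Sox4 lower and Hlf higher. DESeq2 called 1920 and 1778 of all 13080 genes in these comparisons.

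Flt3, Cd34, Kit, Myb and Lmo2 had values in CAF-1 OFF cells near those of the controls. Cd34 was at 2165 and 1615 CPM in the CAF-1 OFF pair and at 1796 and 1647 CPM in the IPTG-treated control pair, so that the CAF-1 OFF libraries spanned the range of both control groups. Its fold against uninduced cells had a 95% interval of 0.826 to 1.35. Kit was at 781 and 684 CPM in the CAF-1 OFF pair and at 678 and 576 CPM in the IPTG-treated control pair, slightly above each control library (interval 0.943 to 1.46 against uninduced, FDR = 0.261 by edgeR). Myb was at 943 and 761 CPM, around the 882 and 828 CPM of the IPTG-treated control, with an interval of 0.717 to 1.40 against uninduced cells. Lmo2 was at 231 and 186 CPM, beside 211 and 192 CPM in the IPTG-treated control (interval 0.825 to 1.29 against uninduced). The lower ends of these 4 intervals lay between 0.717 and 0.943. Flt3 was at 316 and 216 CPM in the CAF-1 OFF pair and at 240 and 345 CPM in the IPTG-treated control pair. Its libraries scattered in all groups, and its interval, 0.437 to 1.83 against uninduced cells, was too wide to tell a modest change from none.

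Myc and Sox4 had lower values in CAF-1 OFF cells without being called. Myc was at 455 and 392 CPM in the CAF-1 OFF pair, below the 597 and 549 CPM of the IPTG-treated control and the 574 and 527 CPM of uninduced cells. The groups did not overlap, yet the fold was 0.77 against uninduced cells (FDR = 0.0624 by edgeR) and 0.74 against IPTG-treated control cells (FDR = 0.0447 by edgeR), the latter past the FDR but short of 1.5-fold. Sox4 was at 57.3 and 36.0 CPM in the CAF-1 OFF pair, below the 84.0 and 114 CPM of the IPTG-treated control. Its fold was 0.50 against uninduced cells (FDR = 0.0925 by edgeR) and 0.47 against IPTG-treated control cells (FDR = 0.0770 by edgeR). With DESeq2 the FDR of Sox4 was 0.0206 and 0.0110 in the same comparisons, and edgeR also called it in both without HOXA9 OFF replicate 1 (FDR = 0.0267 and 0.0223) or replicate 2 (FDR = 0.0244 and 0.0203). These libraries are in neither group compared, and leaving them out changed the number of genes tested as well, to 13700 or 13603.

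Hlf, Mycn and Etv5 had higher values in CAF-1 OFF cells, again without being called in the main fit. Hlf was at 517 and 303 CPM in the CAF-1 OFF pair and at 278 and 242 CPM in the IPTG-treated control pair. Both CAF-1 OFF libraries lay above all 4 control libraries, but they differed by 1.71-fold. The fold of Hlf against uninduced cells was 1.61 (FDR = 0.0682 by edgeR, 0.0136 by DESeq2), and edgeR with the replicate block called it higher (FDR = 0.0479). Without CAF-1 OFF replicate 2, Hlf was called higher, with a log2 fold change of 1.02 (FDR = 0.0277 by edgeR) against uninduced and 0.99 (FDR = 0.0321 by edgeR) against IPTG-treated control cells. Without replicate 1 these values were 0.22 (FDR = 0.364 by edgeR) and 0.20 (FDR = 0.435 by edgeR). Mycn had 134 and 33 reads in the CAF-1 OFF libraries and 15 and 20 in the IPTG-treated control. Replicate 1 alone carried most of this, and the log2 fold change of 2.06 against uninduced cells (FDR = 0.0740 by edgeR) was 0.69 without it and 2.74 without replicate 2. Etv5 was at 36.2 and 26.2 CPM beside 25.4 and 17.8 CPM in the IPTG-treated control, with a wide interval of 0.510 to 4.94 against uninduced cells.

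**Figure D2:**
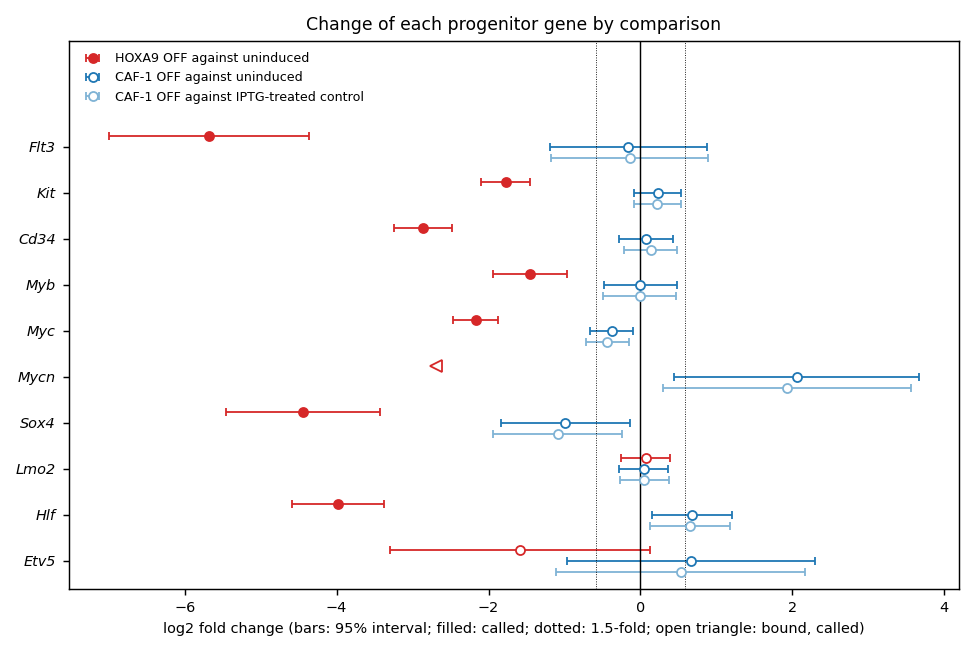
Log2 fold change of each gene (horizontal axis) with its 95% interval, in HOXA9 OFF against uninduced cells and in CAF-1 OFF against both control groups, 2 libraries per group. Filled points are called, open points are not, the dotted lines mark 1.5-fold, and the open triangle is the bound of Mycn, which was called. The HOXA9 OFF points lie to the left of 0 for all genes but Lmo2, while the CAF-1 OFF points lie on both sides of 0.

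The difference between the treatments was tested directly. It is no comparison of CAF-1 lost with CAF-1 kept. Chaf1b was at 48.3 and 41.0 CPM in the HOXA9 OFF pair and at 96.8 and 100 CPM in the uninduced pair. The paper reports that both CAF-1 subunits also fall after estradiol withdrawal. In CAF-1 OFF against HOXA9 OFF cells, 21.4% of tested genes were called lower and 22.2% higher, and 9 of the 10 progenitor genes were called higher and 0 lower. Cd34 was 7.66-fold higher in CAF-1 OFF cells, Kit 4.01-fold, Myb 2.74-fold and Myc 3.46-fold. Flt3 had a log2 difference of 5.52 ± 0.56 (SE, FDR = 0.000186 by edgeR), which was 6.76 without HOXA9 OFF replicate 1 and 4.83 without replicate 2. Hlf was 25.3-fold higher, with a 95% interval of 16.4 to 39.0. Sox4, with its lower values in CAF-1 OFF cells, was still 11.0-fold higher there than in HOXA9 OFF cells (log2 difference 3.45, FDR = 0.000435 by edgeR), and the log2 difference was 2.93 without HOXA9 OFF replicate 1 and 4.27 without replicate 2. Mycn was at least 27.0-fold higher from the mean of the CAF-1 OFF libraries, and at least 10.6-fold from the lower of them. Etv5 was 4.76-fold higher (FDR = 0.0350 by edgeR), but its FDR lay between 0.0507 and 0.125 when any 1 uninduced, CAF-1 OFF or IPTG-treated control library was left out, the highest without CAF-1 OFF replicate 1. Leaving out HOXA9 OFF replicate 2 moved its log2 difference from 2.25 to 4.45, and leaving out replicate 1 moved it to 1.42. Lmo2 was not called, with an interval of the fold from 0.786 to 1.23.

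IPTG and 48 h of culture alone moved none of these genes past the test. In IPTG-treated control against uninduced cells, 0% of tested genes were called by edgeR in either direction (0 of 13080, with 100 at an unadjusted p under 0.05) and 5 genes by DESeq2, and 0 of the 10 progenitor genes passed an unadjusted p of 0.05 with either tool. The widest intervals were those of Mycn (0.342 to 3.48) and Etv5 (0.352 to 3.44), so for these genes only changes beyond such limits would have been seen.

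Per kilobase of exon, the order of the levels in uninduced cells was Cd34, Myb, Myc, Kit, Lmo2, Flt3, Hlf, Sox4, Etv5 and Mycn. Cd34 led with 683 ± 43.5 CPM per kilobase (SD, n = 2), followed by Myb with 226 ± 1.92 and Myc with 203 ± 12.4 CPM per kilobase. Kit (107 ± 3.02 CPM per kilobase) and Lmo2 (93.4 ± 12.2) came next, with both Kit libraries above both of Lmo2, while Flt3 (48.1 ± 12.0) and Hlf (39.2 ± 2.75) overlapped. In HOXA9 OFF cells Lmo2 (98.1 ± 3.25 CPM per kilobase) and Cd34 (94.1 ± 2.35) had the highest means, the Lmo2 libraries just above those of Cd34. Myb (82.3 ± 25.9) came next, but its replicate 1, at 100.6 CPM per kilobase, lay above both genes in either library. In CAF-1 OFF cells the order was that of uninduced cells except that Hlf (63.1 ± 23.3) lay above Flt3 (43.0 ± 11.5), again within the spread.

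**Figure D3:**
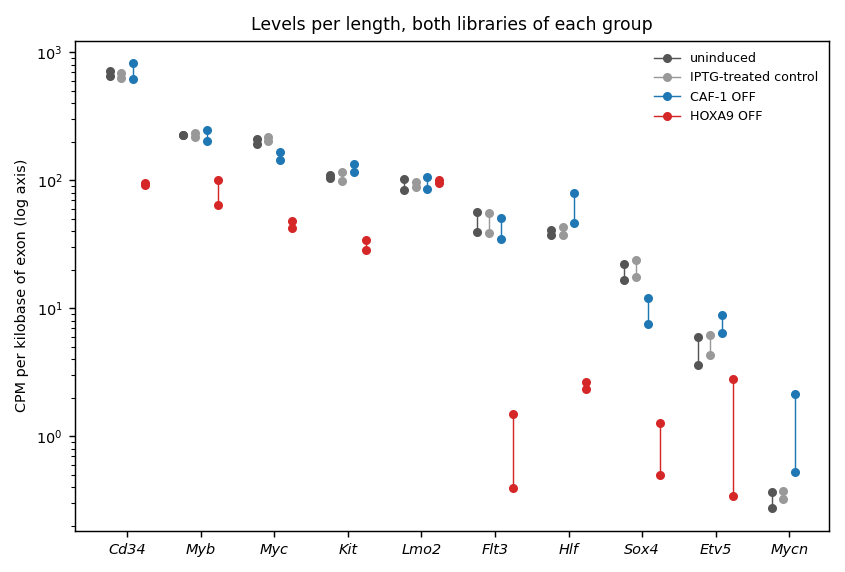
Level per length of the 10 genes, in CPM per kilobase of exon on a log axis, ordered by the uninduced mean, with 1 point per library joined within each group. The HOXA9 OFF libraries of Mycn are at 0 and cannot be drawn on this axis. The Lmo2 points of the 4 groups overlap, and the long HOXA9 OFF lines of Flt3, Sox4 and Etv5 show how far their replicates differ.

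None of the tested ligands and signalling partners of KIT and FLT3 was called lower with the loss of HOXA9 activity. Kitl, the gene of stem cell factor, had 0 reads in all 8 libraries, and Flt3l had 0.579 and 1.37 CPM in the uninduced pair and 2.39 and 2.08 CPM in the HOXA9 OFF pair (FDR = 0.0748 by edgeR). Of 17 listed genes of this signalling, 16 were tested, and without estradiol 8 of them rose and 0 were called lower (median log2 fold change 0.68). Stat5a, a transcription factor downstream of both receptors, had a log2 fold change of -0.54 (FDR = 0.00689 by edgeR), short of 1.5-fold. The 8 that rose included the SRC family kinase Lyn (log2 fold change 1.89) and, with a role in restraining such receptors, the adaptor Sh2b3 (1.51) and the phosphatase Ptpn6 (1.35). CAF-1 OFF against uninduced cells gave 1 call among the 16, as Sh2b3 rose (log2 fold change 0.84, FDR = 0.00630 by edgeR). Over all tested genes 3.5% were called lower and 10.5% higher there, so this count is near the background.

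The genes that ERK signalling induces as feedback split in HOXA9 OFF cells, where 7 of 12 fell and 4 rose. Spry4, an inhibitor of this pathway, was at 38.0 and 45.6 CPM in the uninduced pair and at 0.0543 and 0.496 CPM in the HOXA9 OFF pair, and Spry1 fell by 3.89 on the log2 scale. Etv4, the close relative of Etv5, was at 22.8 and 14.6 CPM in the uninduced pair and at 0.271 and 0.0992 CPM in the HOXA9 OFF pair. Its HOXA9 OFF libraries were both near 0, unlike those of Etv5. The 4 that rose were Dusp5, Egr1, Phlda1 and Ier3. After CAF-1 loss 0 of the 12 fell and 1, Phlda1, rose against uninduced cells. These counts are near the 3.5% lower and 10.5% higher of all tested genes. Spry4 was at 35.8 and 31.5 CPM in the CAF-1 OFF pair.

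MYC partners and targets moved on either side. Of 15 genes that MYC activates, all 15 fell in HOXA9 OFF cells (median log2 fold change -1.63), among them Odc1, the first enzyme of polyamine synthesis (-3.05), the spermidine synthase gene Srm (-2.57) and the cyclin gene Ccnd2 (-2.51). After CAF-1 loss, against uninduced cells, 4 of the 15 fell and 0 rose (median -0.44). They were the nucleolar genes Npm1 (-0.88) and Nop56 (-0.72), the kinase gene Cdk4 (-0.64) and Srm (-0.59), and the first 3 also fell against IPTG-treated control cells. Max, the obligate partner of MYC, was at 122 and 133 CPM in the uninduced pair, 122 and 118 CPM in the CAF-1 OFF pair and 139 and 130 CPM in the HOXA9 OFF pair. Of 12 tested genes of the wider MYC network 6 rose and 0 fell in HOXA9 OFF cells, led by the MYC antagonists Mxd1 (2.20), Mxd4 (1.32) and Mxi1 (1.00). There were 2 that rose in CAF-1 OFF against uninduced cells, Mxd1 (1.02) and Mxd3 (1.12), and Mxd1 alone was also called against IPTG-treated control cells. Over all tested genes 10.5% were called higher against uninduced cells.

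Among 11 genes of the LMO2 complex, 2 fell and 1 rose in HOXA9 OFF cells, shares below the 22.1% and 25.2% of all tested genes, so the counts set the complex apart in neither direction. Tal1 (log2 fold change -1.99) and Tcf3 (-0.94) fell and Gata1 (2.09) rose, while Lyl1 was at 194 and 173 CPM in uninduced and 197 and 188 CPM in the HOXA9 OFF pair. Ldb1, the dimerising cofactor, was at 249 and 255 CPM before and 185 and 174 CPM after, short of 1.5-fold. In CAF-1 OFF against uninduced cells 2 of the 11 rose, Ssbp2 (0.84) and Cbfa2t3 (0.61). Of 6 genes of the MYB family and its cofactors, Mybbp1a (-2.25) and Mybl2 (-1.51) fell and the acetyltransferase gene Ep300 (1.13) rose in HOXA9 OFF cells, and 0 were called in CAF-1 OFF cells against either control. Its relative Crebbp was at 18.1 and 24.6 CPM in uninduced and 32.2 and 31.3 CPM in the HOXA9 OFF pair and was not called.

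Of 17 listed relatives of the 10 genes, 10 were tested, and 5 fell and 2 rose in HOXA9 OFF cells. Csf1r, the macrophage receptor related to KIT and FLT3, was at 5.07 and 3.72 CPM in the uninduced pair, 11.5 and 17.0 CPM in the CAF-1 OFF pair and 465 and 853 CPM in the HOXA9 OFF pair, and it rose against uninduced cells in both (log2 fold change 1.69 and 7.23). Sox12, the relative of Sox4, fell by 4.02 on the log2 scale in HOXA9 OFF cells and had 33.7 and 20.1 CPM after CAF-1 loss beside 40.4 and 47.3 CPM in the uninduced pair (FDR = 0.0830 by edgeR). Relatives of Hlf divided in CAF-1 OFF cells, where Dbp fell by 1.41 on the log2 scale and the bZIP repressor gene Nfil3 rose by 1.00.

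Of 23 other listed stem and progenitor genes 18 were tested, and in HOXA9 OFF cells 8 fell and 7 rose. The largest falls among well-expressed genes were those of Angpt1, a ligand of the TIE2 receptor (log2 fold change -5.21), of the adhesion receptor gene Gpr56 (-2.87) and of the RNA-binding protein gene Lin28b (-2.71). In CAF-1 OFF against uninduced cells 6 rose and 3 fell, namely Meis1, Lin28b (log2 fold change -0.82) and Bmi1 (-0.61). Meis1 and Lin28b were also called lower against IPTG-treated control cells, and Bmi1 was not. The homeobox gene Meis1, whose product is a cofactor of HOX proteins, was at 37.7 and 53.3 CPM in the uninduced pair, 28.7 and 20.2 CPM in the CAF-1 OFF pair and 8.57 and 9.22 CPM in the HOXA9 OFF pair. It was lower after both treatments (log2 fold change -0.89 and -2.35), whereas the zinc finger gene Ikzf2 (2.63 after CAF-1 loss) and the ETS factor gene Erg (1.11) rose. Ikzf2 was at 101 and 106 CPM in the CAF-1 OFF pair, above its 54.9 and 39.2 CPM in the HOXA9 OFF pair and 18.4 and 15.1 CPM in the uninduced pair. The mast cell gene Cpa3 rose as well after CAF-1 loss, by 2.14 on the log2 scale, and was the only one called of 5 tested mast cell markers. The 6 listed summed to 515 to 852 CPM in CAF-1 OFF beside 157 to 227 CPM in uninduced cells, with Cpa3 itself at 764 and 423 CPM in the CAF-1 OFF libraries. Tpsb2 (-0.60), Cma1 (-0.25), Ms4a2 (0.30) and Hdc (0.74) were not called, and Fcer1a was at 0 in all uninduced libraries. The part of mast cell genes in the higher values of Hlf and Ikzf2 was not tested.

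**Figure D4:**
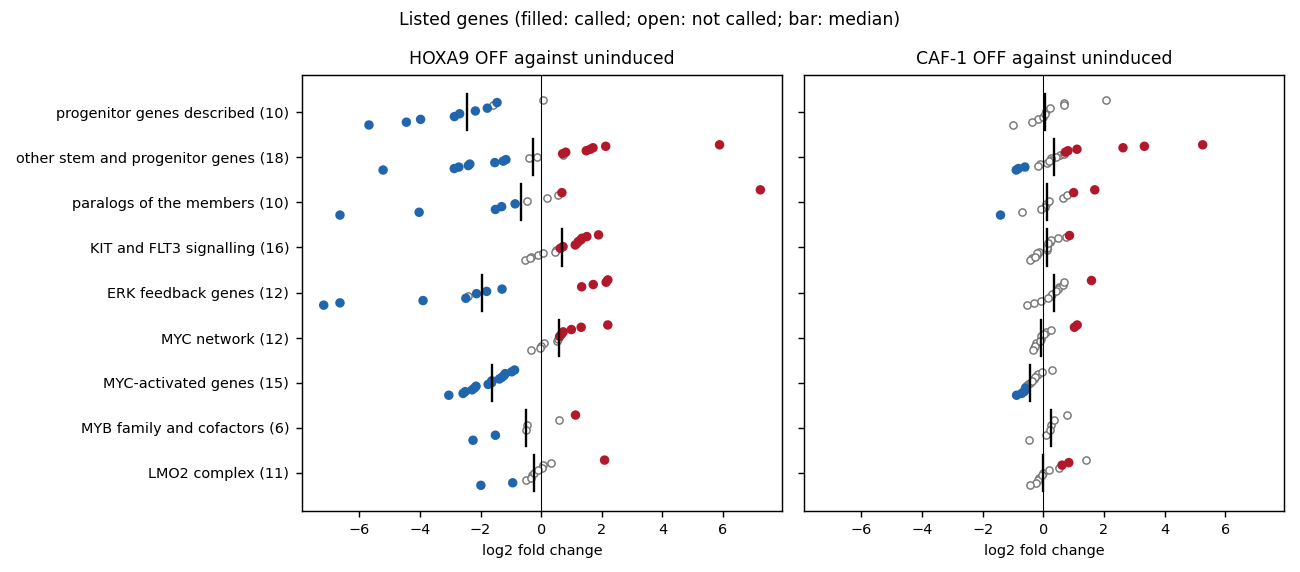
Log2 fold change of the tested genes of each list (number in brackets), in HOXA9 OFF against uninduced cells on the left and CAF-1 OFF against uninduced cells on the right. Filled points are called, blue for lower and red for higher, open points are not called, and the bar is the median of the list. The fitted value of Ly6a, at or under 3 reads in 1 group, depends on the prior count and is no bound. All 15 MYC-activated genes lie left of 0 in HOXA9 OFF cells, while the 10 progenitor genes on the right are all open.

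Over the 8 libraries, the genes whose log2 CPM followed Cd34 most closely were Wnt10a, Epha7 and Gm16341 (Pearson r of 0.999, 0.998 and 0.998). For Flt3 they were 2010317E24Rik, Cep78 and Emid1 (r of 0.997, 0.996 and 0.996), and for Myc they were Bzw2, Tmem201 and 1110034A24Rik (r of 0.999, 0.999 and 0.998). These values describe 8 libraries in 4 groups and rest largely on the distance of the HOXA9 OFF libraries from the rest.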

How the data were processed

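Per the labels and the study's methods, the authors sequenced total RNA of the 8 libraries with a directional NEBNext kit, aligned reads to mm9 with STAR and counted them per gene with HTSeq. The annotation and the strand setting of the counting are not given in the sources used here. The deposited values are raw counts per gene symbol and library, and the 5 summary rows of each file were left out of library sizes. The 10 genes and all lists were chosen with earlier results of these data known. 1 gene of the lists is not reported here.

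Genes were kept by filterByExpr, libraries were scaled by TMM, and all 8 libraries entered 1 quasi-likelihood fit (edgeR 4.0.16 in R 4.3.3) with a mean per group, so that the 4 groups share the estimate of spread (biological coefficient of variation 18.9%). Adjusted p-values are Benjamini-Hochberg over all 13080 tested genes. Intervals are 95%. Within each group the libraries differed by more than sampling noise. The code was tested on simulated counts. From each list of non-marker genes, the text names up to 3 calls with the largest change in HOXA9 OFF and in CAF-1 OFF against uninduced cells, at a mean log2 CPM of at least 2, together with ligands and partners; others are named where a count is 5 or fewer, chosen after their values were seen. Gene models came from GENCODE vM1 on mm9, and figures were drawn with matplotlib 3.10.9. Alternatives were DESeq2 1.42.0 and its size factors, library size only, other filters and thresholds, glmTreat, fits of the compared groups only, the replicate number as a block and leaving out each library. Fits of the compared groups with the block, and HOXA9 OFF set against IPTG-treated control cells, were added after seeing the data.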

Additional observations from a re-analysis of the deposited data

How the results depend on the processing

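In HOXA9 OFF against uninduced cells 8 of the 10 genes were called lower, and 7 to 9 under the alternatives, with 9 where no filter was used or HOXA9 OFF replicate 2 was left out (Etv5 added) and 7 with a mean count of at least 50, which removes Mycn. In CAF-1 OFF against HOXA9 OFF cells the count was 8 or 9. After CAF-1 loss, 0 were called in the main fit, which called 1836 and 1670 of 13080 genes against uninduced and IPTG-treated control cells. With no filter on low counts 3 and 1 were called (Sox4 lower in both, Mycn and Hlf higher in the first). That fit called 2012 and 1827 of 21216 genes. DESeq2 called 2 and 2 (Sox4 lower, Hlf higher), among 1920 and 1778 of 13080 genes. Fits of only the compared groups called 1 and 1 (Sox4 lower), among 2083 of 12606 and 1967 of 12344 genes. With no fold threshold 1 was called against IPTG-treated control cells (Myc lower), among 2408 of 13080 genes. Leaving out a library left 1 library in its group, so the counts of calls in those fits do not check the 0. Deviations of same-numbered libraries correlated across genes at 0.30 to 0.48 between uninduced, IPTG-treated control and HOXA9 OFF, but at -0.04 to 0.08 with CAF-1 OFF, so the numbers were not taken to pair the samples, although the first values hint at something shared. With the replicate block, 1 was called against uninduced cells (Hlf higher, log2 fold change 0.65, FDR = 0.0479 by edgeR), among 2123 of 13080 genes. The counts of the other comparisons were 8, 0, 9 and 0. With the block in fits of only the compared groups, chosen after seeing the data, the counts were 1 against uninduced (Etv5 higher) and 2 against IPTG-treated control cells (Sox4 lower, Hlf higher). Over all genes these fits called 1757 of 12606 and 1773 of 12344. The cause of these changes was not tested. No gene of the 10 changed direction where it was called. With library size only, the median over all genes in HOXA9 OFF against uninduced cells moved from 0.01 to -0.18, with the same 8 and 9 counts. Mycn had the fewest reads of these genes in the uninduced pair (27 and 21), and how far depth limits each gene was not compared.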

Other observations

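Procr and Hmga2 were chosen after their values were seen. Procr, the gene of a surface receptor of stem cells and scarce in uninduced cells, was at 0.890 and 0.257 CPM in the uninduced pair, 0.848 and 0.675 CPM in the IPTG-treated control pair, 1.03 and 0.843 CPM in the HOXA9 OFF pair and 19.6 and 24.4 CPM in the CAF-1 OFF pair. It rose by 5.25 on the log2 scale against uninduced cells (FDR = 0.00224 by edgeR's quasi-likelihood test).

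Hmga2, a chromatin protein gene of immature cells, was at 5.86 CPM in HOXA9 OFF replicate 1 and at 93.7 CPM in replicate 2, beside 55.4 and 55.4 CPM in the uninduced pair. Flt3 differed between these libraries in the opposite direction, and Etv5 and Sox4 in the same direction as Hmga2.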
